A study of Allium sativum with 18 samples.

Results

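Gene expression was compared between germinating and dormant basal clove of garlic (*Allium sativum*), a tissue that was separated by hand from the storage clove of the bulb. The 3 germinating basal libraries came from bulbs with shoots under 5 cm, and the 3 dormant basal libraries came from bulbs at rest. They are 6 of the 18 RNA sequencing libraries of a study that also sampled enlarging basal clove and storage clove at all 3 stages. All samples carry the source name Chalingzipisuan, and each group held 3 biological replicates. The members of the comparison are all gene IDs of the deposited table, 57561 in number, of which 39742 had a value above 0 in at least 1 of the 6 libraries. The labels do not say which parts of the clove went into the basal fraction, and the table pairs no ID with a gene name. The tissue label could therefore not be set against marker genes, and the genes are described by ID and by groups that share a level, a length or a direction of change.

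A garlic clove is a swollen storage leaf that encloses a bud seated on a short stem at the base, from which roots and new leaves emerge. In the dormant clove this bud rests. At germination the bud resumes growth, roots form at the base, and reserves of the storage tissue are drawn on.

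Expression was given as FPKM, fragments scaled to the length of the gene model and to the library total. Levels of different genes can therefore be compared per length. A bulk sample measures RNA per unit of tissue RNA, and a change in the number of cells of a type cannot be told apart from a change in RNA per cell. The reads assigned to genes, recovered from the steps of the FPKM values, came to 18579917 to 21897520 per germinating and 19611684 to 20897436 per dormant basal library, so the depths of the groups overlapped. Germinating replicates resembled each other less than dormant replicates did. Spearman correlations of log2(FPKM + 1) were 0.944 to 0.978 among germinating and 0.987 to 0.989 among dormant libraries, and 0.736 to 0.826 between the groups. The median SD of a gene over replicates was 0.202 in germinating and 0.127 in dormant basal clove on the same log2 scale.

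The transcript that gained the most in level was Asa3G01406.1, with a coding length of 354 bp. It stood at 10053.7, 6896.0 and 9115.8 FPKM in the 3 germinating basal libraries, against 1853.1, 1496.8 and 1534.8 FPKM in the dormant ones. The groups did not overlap, and the means were 8688.5 ± 1621.6 and 1628.2 ± 195.6 FPKM (SD, n = 3 each), a 5.34-fold difference. The log2(FPKM + 1) change was 2.40 (SE 0.24, limma adjusted p = 2.1e-07). This gene was already abundant before germination, ranking between 29 and 41 in the dormant libraries and 1 or 2 in the germinating ones. In enlarging basal clove its mean level was 3156.7 ± 264.8 FPKM (SD, n = 3).

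Asa4G02690.1, with a coding length of 660 bp, was the other ID named for its gain and started from a low level. Its values were 6205.1, 6365.0 and 4323.0 FPKM in germinating basal clove, against 7.57, 3.05 and 7.52 FPKM in dormant basal clove. All germinating values were high and all dormant values were low, with 42 to 101 reads behind each dormant value. The means of 5631.1 ± 1135.6 and 6.05 ± 2.60 FPKM (SD, n = 3 each) differed 931.4-fold, and the log2 change was 9.70 (SE 0.91, limma adjusted p = 1.2e-07). The gene ranked between 3 and 6 in every germinating basal library and between 16378 and 21890 in the dormant ones. It was also low in enlarging basal clove, at 15.9 ± 1.34 FPKM (SD, n = 3).

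The largest losses in level were smaller in fold, because they came from transcripts that stayed abundant. Asa6G06669.1, with a coding length of 507 bp, was at 3505.1, 3529.4 and 3238.8 FPKM in germinating basal clove, against 8777.2, 8572.5 and 9015.4 FPKM in dormant basal clove, where it ranked first in every library. The replicates of each group lay close together, and the mean of 3424.5 ± 161.2 FPKM at germination was 2.57-fold below the dormant mean of 8788.4 ± 221.6 FPKM (SD, n = 3 each). On the log2 scale it fell by 1.36 (SE 0.08, limma adjusted p = 1.2e-09). After median-ratio scaling the change was smaller, at -1.04.

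Asa8G02711.1, with a coding length of 447 bp, ranked 4 in each dormant basal library and 20 to 35 in the germinating ones. Its values were 1921.5, 2046.5 and 2295.2 FPKM in germinating and 5632.5, 5492.6 and 5821.7 FPKM in dormant basal clove. The gap between the groups was wider than the range within either, and the germinating mean of 2087.8 ± 190.2 FPKM was 2.71-fold below the dormant mean of 5648.9 ± 165.2 FPKM (SD, n = 3 each). The log2 change was -1.44 (SE 0.09, limma adjusted p = 2e-09), and -1.12 after median-ratio scaling. Its level had been higher still in enlarging basal clove, at 8690.1 ± 164.0 FPKM (SD, n = 3).

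**Figure D1:**
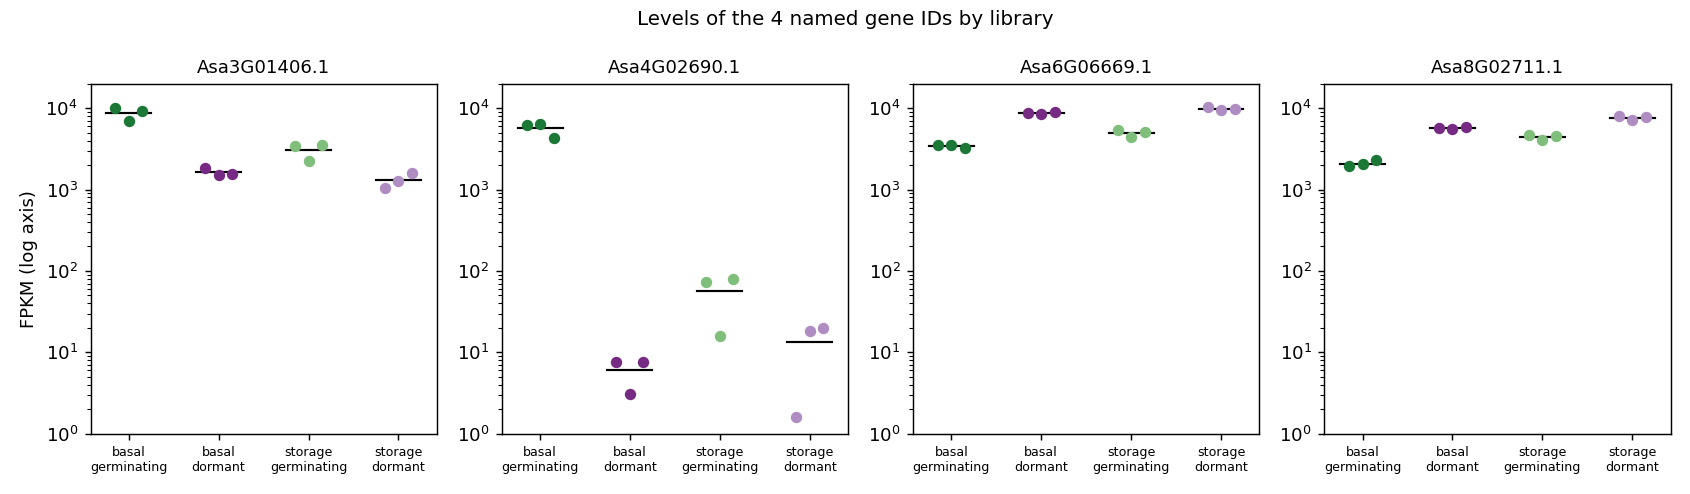
FPKM (log axis) of the 4 named gene IDs in germinating and dormant basal clove and in germinating and dormant storage clove, with 1 point per library and a line at the mean of 3. Asa4G02690.1 reaches 4323.0 to 6365.0 FPKM in germinating basal clove and stays at or below 79.1 FPKM in the other groups shown.

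The level gained and lost was shared unevenly among the called genes, though most of it lay outside the 100 largest changes. Of the summed gain in mean FPKM of the 7963 called genes that rose, the 10 largest gains made up 11.1% and the 100 largest 35.2%. The 10 and 100 largest losses made up 7.99% and 25.4% of the summed loss of the 13035 genes that fell. Gains of at least 1000 FPKM were found for 44 IDs, and losses of at least 1000 FPKM for 19. The 100 most abundant IDs of germinating and of dormant basal clove had 50 in common. For comparison, the 100 most abundant IDs of dormant and of enlarging basal clove had 73 in common.

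The number of detectable genes and the evenness of the libraries also differed, though 3 against 3 libraries cannot give an exact permutation p below 0.10. IDs at 1 FPKM or more numbered 27329, 27755 and 27338 in germinating and 26666, 26705 and 26971 in dormant basal clove (exact permutation test, two-sided, p = 0.1). Every germinating library thus held more such IDs than any dormant one. At 100 FPKM or more they numbered 2094 to 2173 in germinating and 1954 to 2011 in dormant basal clove (exact permutation p = 0.1). Both orders held after median-ratio scaling. The order at 5 FPKM or more depended on the scaling, with 18513 to 18905 IDs in germinating and 18998 to 19383 in dormant basal clove in the deposited values, and 19467 to 19704 and 18677 to 18864 after median-ratio scaling. The 1000 most abundant IDs took 50.1%, 49.1% and 48.6% of the summed FPKM in germinating libraries, against 47.2%, 46.4% and 46.1% in dormant ones (exact permutation p = 0.1). The share of the 10 most abundant IDs overlapped between the groups, at 4.37 to 4.74% and 4.49 to 4.74%.

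The test across genes covered the 30530 IDs with at least 1 FPKM in at least 3 of the 18 libraries, with limma on log2(FPKM + 1) and a Benjamini-Hochberg adjusted p below 0.05 as the call. Of these, 20998 were called, or 68.8% of the IDs tested. The called IDs included 7963 that rose, 26.1% of those tested, and 13035 that fell, 42.7%. The 3 germinating values all exceeded the 3 dormant values for 27.9% of the IDs tested, and all lay below them for 46.1%. This split rested on the scaling of the values. With the deposited FPKM the median change of all IDs was -0.27 and 37.9% of the calls were rises, whereas median-ratio scaling put the median at -0.03 and the rises at 52.5% of the calls. Changes are therefore to be read against a shift of that size. For abundant IDs the shift was larger. Among IDs with a mean of 300 FPKM or more the median moved from -0.34 to -0.03. The median absolute change was 0.93 among called IDs and 0.22 among those not called.

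Rises outnumbered falls among changes of 2 or more on the log2 scale, but not clearly among changes of 1 or more. A rise of 1 or more on the log2 scale was called for 4762 IDs, 15.6% of those tested, and a fall of 1 or more for 4705, 15.4%. The order of these counts depended on the setting. Rises led with median-ratio scaling, at 5931 against 2476. Falls led with voom on the recovered reads, at 5430 rises and 6809 falls, and with a pseudocount of 0.1, at 5323 and 6375. They also led with a filter at 5 FPKM, at 3827 and 4213, with quantile normalization, at 4760 and 4858, and in the fit on the basal libraries alone, at 4673 and 4701. A rise of 2 or more was called for 2130 of the 30530 IDs tested and a fall of 2 or more for 391 of them. A rise of 3 or more was called for 966 IDs, 3.16% of those tested, and a fall of 3 or more for 67, 0.219%. The counts at 3 or more became 1194 and 49 with median-ratio scaling, and 2282 and 306 when voom was run on the recovered reads, which does not add a pseudocount of 1 FPKM. The rises of 3 or more outnumbered the falls of 3 or more under each of these settings.

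**Figure D2:**
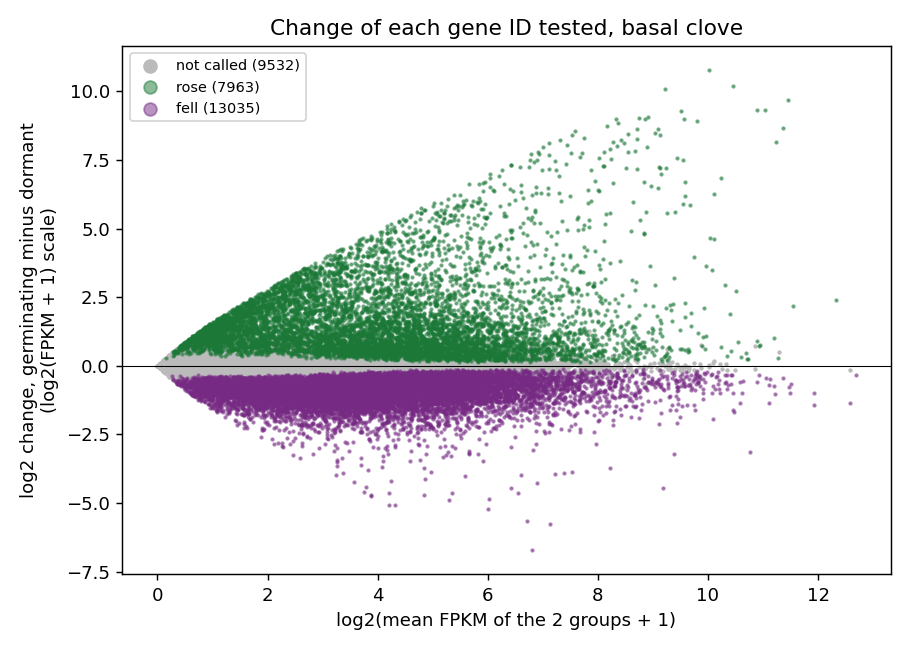
Log2 change between germinating and dormant basal clove against the log2 mean level of both groups, 1 point per gene ID tested, with 7963 called rises in green, 13035 called falls in purple and 9532 IDs not called in grey. The largest rise is 10.78 and the largest fall is -6.72, and at low levels the pseudocount of 1 limits the change in both directions.

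The genes that rose by 1 or more took up a small part of the dormant transcriptome and a large part of the germinating one. They held 30.7%, 28.6% and 35.6% of the summed FPKM in the 3 germinating basal libraries, against 5.42%, 5.29% and 5.72% in the dormant ones. Their median level was 17.3 FPKM at germination and 2.0 FPKM at dormancy, and 1875 of the 4762 had a dormant mean below 1 FPKM. The genes that fell by 1 or more held 7.28%, 7.99% and 6.32% of the summed FPKM in germinating libraries, against 21.3%, 21.4% and 21.6% in dormant ones. Their median level was 5.58 FPKM at germination and 16.5 FPKM at dormancy, and 522 of the 4705 had a germinating mean below 1 FPKM. Most falls in this set thus left a mean of 1 FPKM or more. The pseudocount of 1 keeps genes with a dormant mean below 1 FPKM out of the set, so this is partly set by the scale. These shares describe genes chosen by the same change, so no test was made on them.

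The 966 genes that rose by 3 or more held 14.6%, 13.1% and 16.9% of the summed FPKM in germinating libraries, against 0.389%, 0.352% and 0.436% in dormant ones. Their median level was 1.54 FPKM in enlarging, 0.986 FPKM in dormant and 47.4 FPKM in germinating basal clove. The 67 genes that fell by 3 or more had medians of 64.1 FPKM in enlarging, 51.9 FPKM in dormant and 2.73 FPKM in germinating basal clove. They held 0.0684%, 0.0915% and 0.0610% of the summed FPKM in germinating libraries, against 1.01%, 1.01% and 0.965% in dormant ones.

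**Figure D3:**
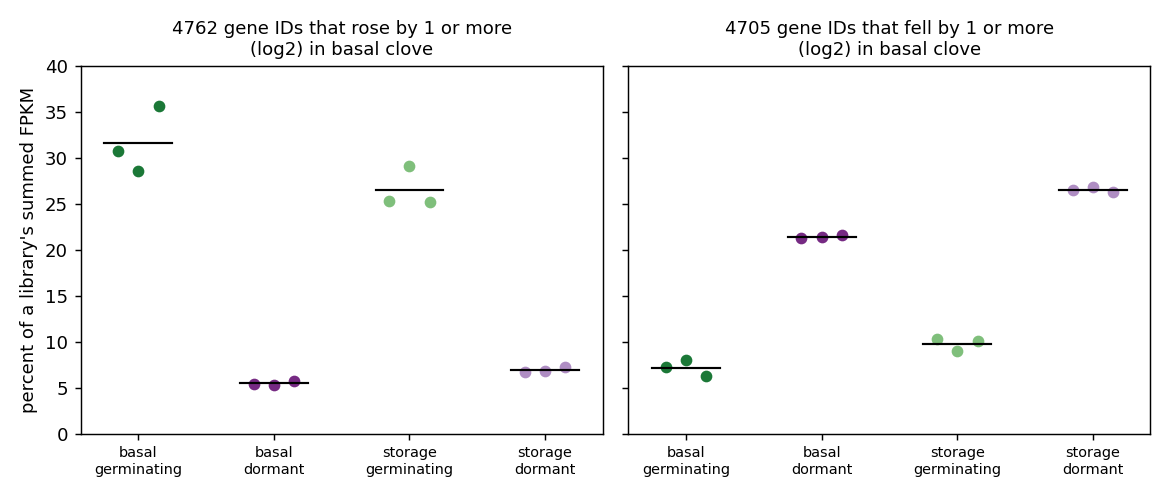
Percent of the summed FPKM of a library held by the 4762 gene IDs that rose by 1 or more (left) and the 4705 that fell by 1 or more (right) in basal clove, with 1 point per library and a line at the mean of 3. The rising IDs hold 28.6 to 35.6% in germinating and 5.29 to 5.72% in dormant basal clove.

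The germinating libraries differed in how far these genes had moved. Replicate 3 held the highest of the 3 germinating values for 57.0% of the genes that rose by 1 or more, and the lowest for 66.3% of those that fell by 1 or more. Replicate 2 held the lowest value for 48.8% of the rising genes and the highest for 61.6% of the falling genes. Over all IDs tested, replicate 3 was highest for 32.8% and lowest for 46.3%, and replicate 2 was highest for 43.1% and lowest for 26.0%. The median level of the 966 strongest risers was 42.1, 34.0 and 60.1 FPKM in germinating replicates 1, 2 and 3. Replicate 2 thus lay nearest to the dormant libraries and replicate 3 farthest from them in these genes. Without replicate 3, 863 genes rose and 54 fell by 3 or more, and without replicate 2 the counts were 1116 and 87. Shoot length, the sampling day and the composition of each basal fraction are not given per replicate in the labels, and their part in this was not tested.

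Some genes went between a count near 0 and a substantial level. A floor of 3 reads was used as the limit of detection in a library, or 0.137 to 0.161 FPKM in germinating and 0.144 to 0.153 FPKM in dormant basal clove for a gene of 1 kb. At or below this floor in every dormant library, and at 10 FPKM or more in every germinating library, were 88 of the 30530 IDs tested. The reverse pattern was found for 7 IDs. Without germinating replicate 2 the counts were 138 and 11. Both counts rest on the values used to select the genes and have no test. The 88 IDs together had 6959.9, 5791.4 and 8658.8 FPKM in the germinating basal libraries, from 75334 to 93657 reads, against 9.36, 7.24 and 8.63 FPKM in the dormant ones, from 80 to 84 reads. Their means at germination lay between 10.7 and 855.1 FPKM with a median of 38.5 FPKM, and 14 of them reached 100 FPKM.

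For 24 of the 88 IDs no read was counted in any dormant basal library. Against the floor of 3 reads per library, these were at least 19.6-fold to at least 2239.2-fold higher at germination, with a median bound of 115.8. Floors cover counting error only. Recovered lengths of the 88 ran from 154 to 2217 bp with a median of 537 bp, against a median of 765 bp over all IDs tested. In enlarging basal clove 36 of the 88 were at or below the floor in every library and none reached 10 FPKM in every library, so this set as a whole was also low before dormancy. Its summed level was 57.3, 32.8 and 24.2 FPKM in the enlarging basal libraries.

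The 7 IDs with the reverse pattern summed to 0.440, 0.409 and 0.517 FPKM in germinating basal clove, 4 reads in each library, against 229.5, 114.8 and 254.3 FPKM in dormant basal clove. All 7 were at 10 FPKM or more in each enlarging basal library, where they summed to 273.4, 287.5 and 379.3 FPKM. Asked without a minimum level, 864 IDs had 0 reads in each dormant library and at least 1 read in each germinating library. The opposite held for 234 IDs. Both counts stand beside 39742 IDs above 0 in at least 1 of the 6 libraries.

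**Figure D4:**
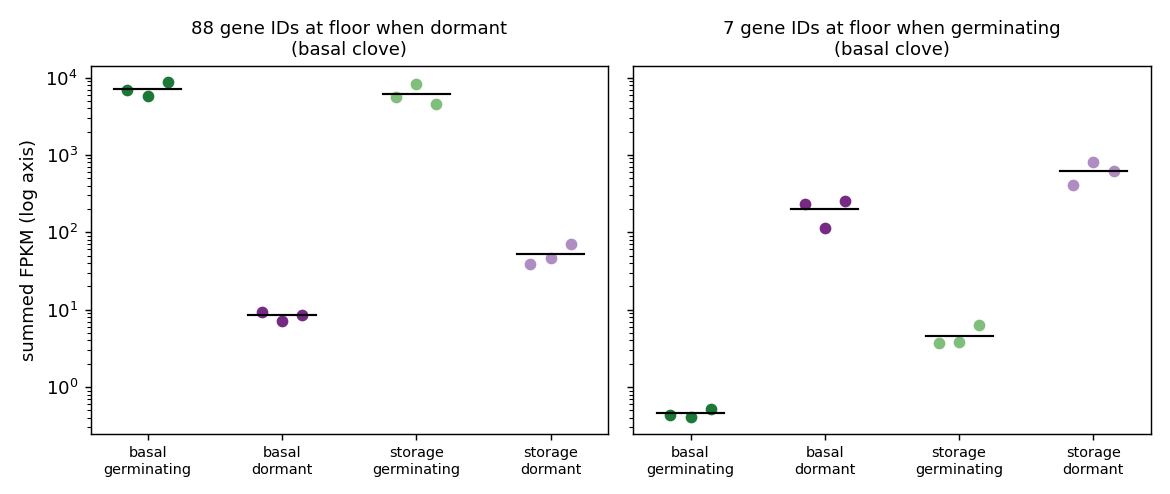
Summed FPKM (log axis) of the 88 gene IDs at or below 3 reads in every dormant basal library (left) and of the 7 at or below 3 reads in every germinating basal library (right), with 1 point per library and a line at the mean of 3. The 88 IDs sum to 5791.4 to 8658.8 FPKM in germinating and 7.24 to 9.36 FPKM in dormant basal clove.

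The share of genes called was higher at higher expression levels, and rises of 1 or more made up 14.0% to 17.9% of every level class. Classes were made from the mean over all 18 libraries. In the class below 1 FPKM 48.7% of 2494 IDs were called, and in the class from 300 FPKM upward 86.5% of 532 were. In the lowest class 17.9% of the IDs rose by 1 or more and 3.77% fell by as much. From 10 to below 30 FPKM, the class with the most IDs, 14.4% rose by 1 or more and 18.9% fell by as much. From 300 FPKM upward the shares were 14.8% and 19.0%. Fewer reads stand behind the low classes, and the pseudocount of 1 bounds how far a gene below 1 FPKM can fall on this scale. The filter and the class means also include the libraries compared. A gene that is low at the other stages can enter the lowest class through its germinating values alone. The split of rises and falls in that class is therefore partly set by these rules, and no conclusion is drawn from it.

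The direction of change also differed between classes of coding length. The length of each gene model came from the same steps that gave the reads. Among the 21276 IDs with over 100 reads in a library, 95.2% of the lengths were multiples of 3, so they were taken as coding lengths. A length was found for 41306 IDs, and the smallest that fitted was used. For IDs with few reads it can therefore be a fraction of the true length. Genes of 600 to below 1000 bp rose by 1 or more in 19.9% of 7000 cases and fell by as much in 12.7%. Genes of 1000 to below 1500 bp were alike, with 18.2% and 11.8% of 5822. The shortest genes, below 300 bp, rose by 1 or more in 10.5% of 3099 cases and fell by as much in 22.6%. The longest genes, from 2500 bp upward, rose by 1 or more in 7.37% of 1424 cases and fell by as much in 23.1%. On the deposited values, genes of 600 to below 1500 bp held more rises than falls of this size, and the classes at both ends of the length range held more falls. The classes between them depended on the scaling. Genes of 300 to below 600 bp rose in 14.6% and fell in 15.8% on the deposited values, but rose in 17.6% and fell in 8.79% after median-ratio scaling. Genes of 1500 to below 2500 bp rose in 13.5% and fell in 16.1% on the deposited values, but rose in 17.7% and fell in 7.42% after that scaling. After median-ratio scaling the shares of rises and falls were 12.7% and 13.2% in the shortest class, 24.7% and 6.61% at 600 to below 1000 bp, and 8.99% and 11.2% in the longest class.

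The median change followed the same course. From the shortest class to the longest it was -0.51, -0.30, -0.14, -0.12, -0.32 and -0.56 on the log2 scale. Median-ratio scaling moved all classes upward, to -0.27, -0.07, 0.13, 0.14, -0.05 and -0.29, so the sign in the 2 middle classes depends on the scaling. The 2 middle classes were the highest and the end classes the lowest under both scalings. Length and level are linked, with a median level of 7.56 FPKM in the shortest and 13.8 FPKM in the longest class. Among IDs with a mean of 10 to below 30 FPKM the medians still ran from -0.72 in the shortest class to -0.11 at 600 to below 1000 bp and -0.62 in the longest class. In storage clove the medians of the same classes at germination were -0.03, 0.03, 0.08, 0.05, -0.06 and -0.28. RNA integrity is not given in the labels, and its part in the pattern was not tested.

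**Figure D5:**
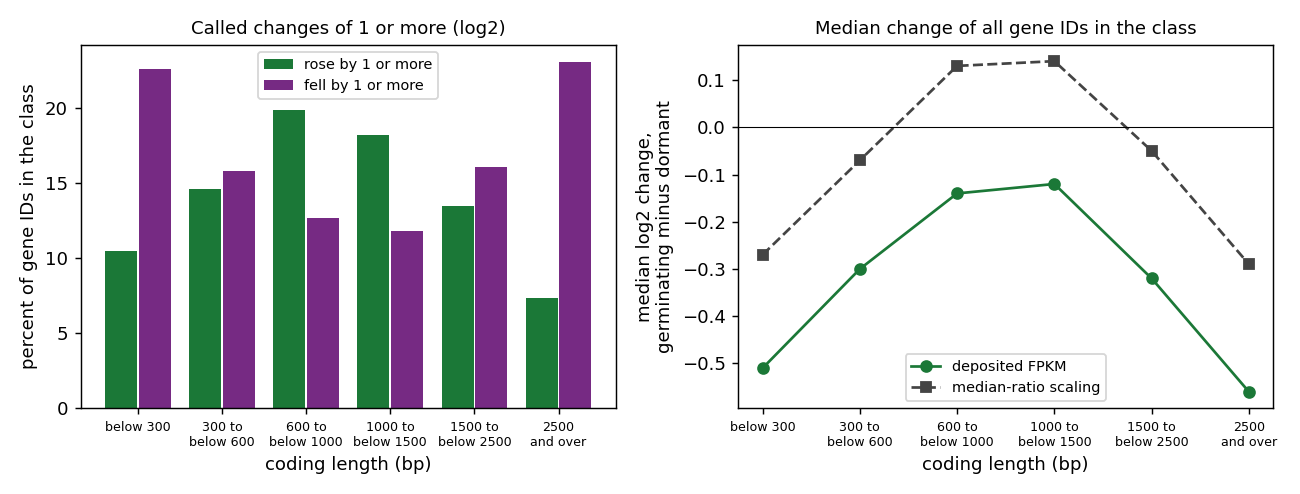
Left, percent of gene IDs in each class of coding length (bp) that rose or fell by at least 1 (log2) between germinating and dormant basal clove. Right, median log2 change of all IDs in the class with the deposited FPKM and after median-ratio scaling; both curves peak at 1000 to below 1500 bp and are lowest at the ends.

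Some genes with consecutive ID numbers rose together. The IDs consist of a digit that defines 9 series and a running number, and the sources used here do not say whether the number follows the order on a chromosome. Of the 966 IDs that rose by 3 or more, 802 had a direct neighbour by number that was tested. For 204, or 21.1% of the 966, such a neighbour also rose by 3 or more. These formed 92 runs of 2 or more consecutive IDs, 12 of them of 3 or more, and the longest were 2 runs of 6. Of the 67 IDs that fell by 3 or more, 16 or 23.9% had a neighbour that did so too. With median-ratio scaling 20.4% of the risers and 28.6% of the falling IDs had such a neighbour. Per ID, 3.16% of all IDs tested rose and 0.219% fell by 3 or more. These rates are not a matching background, because an ID can have a neighbour on either side. The share of all IDs tested with such a neighbour was not computed. Neighbouring gene models can be near-identical copies between which reads are split, and the sources used here do not say how the authors assigned such reads. Between the 9 series the shares differed little, with 13.6% to 17.9% of the tested IDs rising by 1 or more and 13.4% to 17.1% falling by as much.

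Storage clove germinating in the same study showed where the basal change was shared. That comparison uses other libraries, 10383944 to 12988262 reads each in germinating and 6540146 to 7155009 in dormant storage clove, so low genes are measured less exactly there. Of the 966 IDs that rose by 3 or more in basal clove, 751 or 77.7% were also called as rising in storage clove, where 30.8% of all IDs tested rose. Their median change was 3.94 in basal and 2.61 in storage clove. Another 24 fell in storage clove, and 191 were not called there. Of the 67 that fell by 3 or more in basal clove, 45 or 67.2% also fell in storage clove, where 29.0% of all IDs tested fell. Their median change was -3.69 in basal and -2.56 in storage clove.

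The difference between the tissues was tested as an interaction of tissue and stage in the same model. The basal change was the more positive for 13.5% of all IDs tested and the storage change for 29.1%, with calls at a limma adjusted p below 0.05. This imbalance was not present after median-ratio scaling, with 5634 IDs more positive in basal clove and 5633 in storage clove, against 4126 and 8877 on the deposited scale. Among the 966 strong risers of basal clove, the interaction was called for 513 in favour of basal clove and for 101 in favour of storage clove. The 966 were chosen by their basal change, which favours a larger basal value, so these counts are a description. Of the 88 IDs that left the floor in basal clove, 32 were at 10 FPKM or more in every germinating storage library and 11 were at or below the floor in all of them. They summed to 5550.3, 8376.4 and 4587.5 FPKM in germinating storage clove, against 39.3, 46.3 and 70.2 FPKM in dormant storage clove. In summed level the 88 IDs therefore overlapped between germinating basal and germinating storage clove.

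On the deposited values the interaction was called for each of the 4 named genes. These genes were chosen by their basal change, which favours a larger basal value, so their interactions are a description. Asa3G01406.1 rose by 2.40 in basal and 1.22 in storage clove, with an interaction of 1.19 (SE 0.33, limma adjusted p = 0.0092). Asa4G02690.1 rose by 9.70 in basal clove, and its storage values of 74.1, 16.1 and 79.1 FPKM at germination, against 1.62, 18.2 and 20.1 FPKM at dormancy, overlapped. Its storage change was called as a rise of 2.20 (SE 0.91, limma adjusted p = 0.046). Its interaction was 7.50 (SE 1.28, limma adjusted p = 0.00022). Asa8G02711.1 changed by -1.44 in basal and -0.78 in storage clove, with an interaction of -0.66 (SE 0.13, limma adjusted p = 0.00083). The interaction of Asa6G06669.1 was smaller, at -0.36 (SE 0.12, limma adjusted p = 0.022), and was not called after median-ratio scaling, at -0.13 (limma adjusted p = 0.37), or without dormant basal replicate 3, at -0.34 (limma adjusted p = 0.05).

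The level in enlarging basal clove was set beside the dormant and germinating levels of the same genes. Of the 4762 genes that rose by 1 or more, 2676 had an enlarging mean between the dormant and the germinating means, 2036 had one at or below both, and 50 had one at or above both. For 4712 of them the germinating mean was thus the highest of the 3 stages. The choice of these genes already put the germinating mean above the dormant one, so only the place of the enlarging mean was free. Of the 4705 genes that fell by 1 or more, 1998 had an enlarging mean in between, 2599 had one at or above both and 108 had one at or below both. Over all 30530 IDs tested, 11032 had an enlarging mean in between, 8537 had one at or below both and 10961 had one at or above both. The germinating mean was the highest for 10438 of the 30530. The enlarging libraries share no sample with either group compared, but the genes were chosen by their germinating and dormant values, so no test was made on these counts.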

How the data were processed

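Libraries were prepared from total RNA with a NEBNext kit for Illumina sequencing, according to the labels' protocols. The values analysed are the deposited FPKM of 18 libraries, in a single table. Reads were aligned with HISAT2, per the submitters' processing notes; the version, the counting tool, the build, the gene annotation and any use of strand are not given in the sources used. FPKM values are whole reads divided by length and library total, so library totals, lengths and reads were recovered from their steps. At these totals 99.99% of the 595800 values above 0 came out whole within 0.01 reads, partly because the length was searched for.

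Tests used limma 3.58.1 in R 4.3.3 on log2(FPKM + 1), with the 6 group means over all 18 libraries, a variance trend and 12 residual degrees of freedom. IDs with at least 1 FPKM in at least 3 libraries were kept. This scale understates changes of low genes. Median-ratio scaling, quantile normalization, other pseudocounts and filters, a fit on the 6 basal libraries, a replicate block, voom on recovered reads and leaving out each replicate were tried as alternatives. The model was tested on simulated data. Named IDs were the 2 with the largest gain and the 2 with the largest loss in group mean FPKM, among called IDs whose groups did not overlap. The comparison, the groups of genes and this rule were chosen with earlier results of these data known. Gene lists by protein description could not be used, because the table pairs no ID with a description. No pair of replicates agreed within sampling noise (chi-square per gene of 3.98 to 65.92 over IDs with at least 20 reads in the pair), so each library counted as 1 replicate. Python 3.11.15 with scipy 1.17.1 gave the exact permutation tests.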

Additional observations from a re-analysis of the deposited data

Results flagged for a closer look

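On the deposited values, the interaction test in limma called a different change in basal and storage tissue for all 4 named IDs. These IDs were chosen by their basal change, which favours a larger basal value, so the interactions are a description. The basal change was the more positive by 1.19 on the log2 scale for Asa3G01406.1 and by 7.50 for Asa4G02690.1. It was the more negative for Asa6G06669.1, with an interaction of -0.36, and for Asa8G02711.1, with an interaction of -0.66. That of Asa6G06669.1 was not called in 3 of 12 alternatives, among them median-ratio scaling, at -0.13 (limma adjusted p = 0.37). The interaction was called for 42.6% of all IDs tested, so such a difference was common.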

How the results depend on the processing

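The log2 changes of the 4 named IDs kept their direction and stayed called in all 14 alternatives. The interactions of the 4 IDs kept their direction and stayed called in all 12 alternatives that could give them, except that of Asa6G06669.1. It was not called in 3, with values between -0.62 and -0.13 and limma adjusted p-values between 0.0037 and 0.37 over the 12. It was lost without a filter (-0.36, adjusted p = 0.077), after median-ratio scaling (-0.13, adjusted p = 0.37) and without dormant replicate 3 (-0.34, adjusted p = 0.05). Median-ratio scaling lowered the falls of 1 or more to 2476. It moved the interaction calls to 5634 in favour of basal and 5633 in favour of storage clove, against 4126 and 8877. A pseudocount of 0.1 gave 2127 rises and 253 falls of 3 or more, and voom on recovered reads 2282 and 306. Leaving out each replicate in turn gave 863 to 1116 rises and 54 to 87 falls of 3 or more. It gave 94 to 138 IDs at the floor when dormant and 7 to 11 at the floor when germinating, with the highest of each without germinating replicate 2. With 5 FPKM or 20 FPKM as the level of the high group, 181 or 44 IDs were at the floor when dormant, and with 20 FPKM 1 ID was at the floor when germinating. The difference in IDs at 1 FPKM or more, 693.3, became -501.7 at 5 FPKM. The difference in the share of the 10 most abundant IDs was -0.0774 percentage points and lay between -0.176 and 0.0122 without single replicates. No paired analysis was called for by the data, since the deviations of same-numbered libraries correlated at 0.12, 0.01 and 0.10 and not every library correlated best with its own number. With the replicate block 20114 IDs were called, against 20613 in the same fit without it. The cause of these shifts was not tested. Low genes are limited by depth, and IDs without names limit the description to levels, lengths and directions.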
